A study of Homo sapiens with 12 samples.

Results

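Small nucleolar RNA (snoRNA) host genes carry snoRNAs in their introns, and 10 of them are described here: GAS5, SNHG1, SNHG3, SNHG5, SNHG6, SNHG7, SNHG8, SNHG12, SNHG15 and SNHG16. They were to be found as probe sets whose whole symbol entry in an annotation of the array is 1 of these names, and of 54675 probe sets only 1 meets that wording, a dim one for GAS5. Another 17 probe sets list 1 of the 10 genes together with snoRNA genes. In RefSeq all 63 of these 63 snoRNA entries, 29 different snoRNAs, lie inside the span of the host gene they are listed with, so the 17 were taken as probe sets of that host. Together 18 probe sets cover all 10 genes: 5 for GAS5, 3 for SNHG12, a pair each for SNHG7 and SNHG16, and 1 for each of the other genes. The annotation does not say whether a probe set reads the spliced host RNA, an unspliced one or a snoRNA, and every value below belongs to the listing as a whole. All 18 lay above the limit set on dim probe sets, a mean signal of 10.2.

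RNA was hybridised to 12 Affymetrix U133 Plus 2.0 arrays, 3 for each of 4 groups of cells derived from Ls174T, a human colorectal carcinoma line with constitutive Wnt signalling. In the derivative Ls174T-pTER-β-catenin, doxycycline induces a hairpin RNA that knocks down β-catenin (shRNA), and cells were taken after 72 h with doxycycline or without it. In the derivative Ls174T-L8, the drug induces a transgene for dominant-negative Tcf4 (dnTcf4), and cells were taken after 24 h with doxycycline or without it. The comparison of each induced group with its uninduced line asks which RNAs depend on β-catenin and Tcf4, and doxycycline itself is not separated from the construct in either line. Both derivatives share the Ls174T background, no label says whether each is 1 clone, and line, construct and time differ together between them. No label names separate cultures for the 3 arrays of a group, so p-values measure the spread between arrays, which may be technical, and their number limits the precision.

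Most host genes of this family make long noncoding RNAs whose exons are turned over quickly, while the snoRNAs in their introns are kept and guide chemical changes of ribosomal RNA. Box C/D snoRNAs, named SNORD, guide ribose methylation, and box H/ACA snoRNAs, named SNORA, guide pseudouridylation. Many host transcripts begin with a terminal oligopyrimidine (TOP) tract as ribosomal protein mRNAs do. Spliced host RNAs that are translated over short reading frames are removed by nonsense-mediated decay, so that GAS5 accumulates when translation or growth is arrested, for which it was named. In the intestine Wnt signalling drives proliferation of crypt cells and, through MYC, ribosome production.

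Promoters of 8 of the 10 genes were found in RefSeq (build GRCh38.p14), each from 250 bases before to 50 bases after the annotated start, and 5 are printed because their probe sets moved in both inductions. The first 3 belong to genes that moved in opposite directions in the lines (SNHG8, SNHG7 and SNHG5), and the last 2 to genes that fell in both (SNHG1, and SNHG16 by 1 of its probe sets). Capitals mark matches to 4 motifs: the E-box CACGTG, the TCF letters CTTTGAT or CTTTGAA on either strand, a TATA motif TATAAA or TATATA on the strand of the gene, and the longest run of C followed by C or T, at least 5 bases long and starting within 20 bases of the annotated start.
SNHG8, chr4:118278512-118278811, plus strand: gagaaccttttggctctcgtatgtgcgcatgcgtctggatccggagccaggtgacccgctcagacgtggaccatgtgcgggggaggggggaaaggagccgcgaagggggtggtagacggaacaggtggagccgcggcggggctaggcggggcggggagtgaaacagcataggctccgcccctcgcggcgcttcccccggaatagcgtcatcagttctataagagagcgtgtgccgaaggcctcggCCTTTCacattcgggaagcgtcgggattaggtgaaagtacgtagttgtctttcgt
SNHG7, chr9:136728135-136728434, minus strand: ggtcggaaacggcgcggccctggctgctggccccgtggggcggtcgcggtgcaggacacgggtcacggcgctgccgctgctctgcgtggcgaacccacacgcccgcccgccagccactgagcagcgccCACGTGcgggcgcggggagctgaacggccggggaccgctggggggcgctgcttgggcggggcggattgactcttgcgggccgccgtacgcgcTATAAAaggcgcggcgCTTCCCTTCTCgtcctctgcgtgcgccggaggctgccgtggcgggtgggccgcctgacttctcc
SNHG5, chr6:85678684-85678983, minus strand: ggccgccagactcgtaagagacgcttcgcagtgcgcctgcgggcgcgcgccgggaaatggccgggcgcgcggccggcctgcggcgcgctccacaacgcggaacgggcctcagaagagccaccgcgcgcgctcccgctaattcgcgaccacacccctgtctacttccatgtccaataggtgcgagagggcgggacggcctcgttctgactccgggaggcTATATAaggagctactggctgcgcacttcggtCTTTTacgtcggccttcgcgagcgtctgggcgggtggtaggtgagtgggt
SNHG1, chr11:62855836-62856135, minus strand: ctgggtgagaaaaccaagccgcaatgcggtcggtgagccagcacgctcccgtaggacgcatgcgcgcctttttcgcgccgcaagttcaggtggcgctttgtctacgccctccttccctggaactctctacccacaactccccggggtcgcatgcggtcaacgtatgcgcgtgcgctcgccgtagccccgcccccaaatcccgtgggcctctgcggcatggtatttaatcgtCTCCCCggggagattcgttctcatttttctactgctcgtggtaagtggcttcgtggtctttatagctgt
SNHG16, chr17:76557514-76557813, plus strand: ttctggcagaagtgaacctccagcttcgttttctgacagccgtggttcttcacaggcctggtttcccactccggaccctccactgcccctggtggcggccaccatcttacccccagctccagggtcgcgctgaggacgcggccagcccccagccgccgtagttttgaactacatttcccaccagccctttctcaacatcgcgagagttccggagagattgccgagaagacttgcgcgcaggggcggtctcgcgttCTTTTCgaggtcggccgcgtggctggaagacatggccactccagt
No TCF match was found in any of the 8 windows, and 6.86% of 35114 RefSeq promoters of the same length hold one. Only the SNHG7 window held an E-box, at position -122 from the start, which 7.26% of all promoters hold. A TATA motif began at position -30 in SNHG7 and in SNHG12 and at -32 in SNHG5, and 10.2% of all promoters hold one somewhere in the window. In GAS5 the match lay at -217. A pyrimidine run was found in 6 of the 8 windows, against 47.9% of all promoters, and measured 11 bases in SNHG7, 12 in SNHG12, 6 in SNHG8, SNHG1 and SNHG16 and 5 in SNHG5. The runs began at -19 in SNHG1, -14 in SNHG7, -5 in SNHG8, -1 in SNHG12, 0 in SNHG5 and 5 in SNHG16. In GAS5 and SNHG3 the longest runs, of 2 and 4 bases, were too short to count. These matches describe letters in the windows and were not tested for binding or use.

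Values are signals of the deposited table, linear and in arbitrary units, scaled so that every array has a trimmed mean of 100.01 or 100.02, so a change in total RNA per cell would not be seen. Median signals of the arrays lay between 12.1 and 15.3, and arrays of a group correlated with r between 0.957 and 0.969 across tested probe sets. The brightest CTNNB1 probe set averaged 156.2 ± 21.4 in induced shRNA cells and 3784 ± 195 in uninduced ones (SD, n = 3 each), 24.4-fold lower. The dim CTNNB1 probe set 223679_at did not pass (limma, adjusted p = 0.116). For TCF7L2, the gene of Tcf4, probe set 212759_s_at averaged 1286 ± 499 in induced dnTcf4 cells and 108 ± 29.5 in uninduced ones (SD, n = 3 each). It changed most, and the other tested TCF7L2 probe sets rose from 1.33-fold (216511_s_at, adjusted p = 0.119) to 7.55-fold (212762_s_at). With the shRNA the tested TCF7L2 probe sets were also higher, 1.40-fold to 1.67-fold, with 212759_s_at and 216511_s_at not passing. Of 10 established Wnt targets 9 fell with the shRNA and 8 with dnTcf4. All 10 listed epithelial markers were measured, with summed signals of 30665 to 34642 in induced and 18078 to 20312 in uninduced shRNA cells, and of 29840 to 33116 in induced and 23110 to 25539 in uninduced dnTcf4 cells. Bright genes weigh most in these sums, as LGALS4, with geometric means of 9587 in induced and 1821 in uninduced shRNA cells. At a limma adjusted p under 0.05, 5 of the 10 were higher and 1 lower with the shRNA. With dnTcf4 4 were higher and none lower. Of 7 leukocyte markers 6 were measured, CD68 only by a listing with SNORA67, and they summed to 85.9 to 101.9 in induced and 110.5 to 142.6 in uninduced shRNA cells and to 131.2 to 163.6 in induced and 68.3 to 87.3 in uninduced dnTcf4 cells. Only CORO1A, LCP1 and CD68 were bright enough to be tested. With the shRNA CORO1A fell by 1.31 on the log2 scale (limma, adjusted p = 0.00309) and LCP1 rose by 1.52 (adjusted p = 0.0412). The CD68 listing gave 71.1 to 109 in induced and 26.2 to 41.7 in uninduced dnTcf4 cells, a log2 change of 1.57 (adjusted p = 0.0233), and its change of 1.14 with the shRNA did not pass (adjusted p = 0.0983). It was also higher, by 1.72 on the log2 scale, in uninduced dnTcf4 than in uninduced shRNA cells (adjusted p = 0.0127). The other 3 stayed low, with highest signals over the 12 arrays of 10.7 for PTPRC, 24 for CD3E and 5.2 for CD14. The 7 fibroblast markers summed to 107.7 to 177.5 and 101.1 to 120.8 in induced and uninduced shRNA cells, and to 187.2 to 206.1 and 109.9 to 142.1 in induced and uninduced dnTcf4 cells, and of the 4 tested LUM rose in both inductions, with log2 changes of 1.94 with the shRNA and 2.19 with dnTcf4. The 3′/5′ ratio of ACTB, a measure of RNA integrity, was 1.29 to 1.34 and 1.32 to 1.39 in induced and uninduced shRNA cells, but 1.13 to 1.16 in induced and 1.25 to 1.35 in uninduced dnTcf4 cells. These values move with the groups compared below, and their part in the results was not tested. In such bulk samples fewer cells of a type and less RNA per cell cannot be told apart.

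With the β-catenin shRNA, 3 host listings rose and 2 fell. SNHG8, SNHG7 and SNHG5 rose 1.83-fold, 1.68-fold and 1.38-fold, while SNHG1 fell by 0.37 and 1 of the SNHG16 probe sets fell by 0.46 on the log2 scale. The 5 of 18 called at an adjusted p under 0.05 (limma, Benjamini-Hochberg over all probe sets tested) compare with 25.1% of the 27307 probe sets tested, a share close to the 27.8% of the host listings. By direction 12.2% of all probe sets were higher and 12.9% lower. The median change of the 18 was -0.07 on the log2 scale, and that of all probe sets 0.01. A total of 11 of the 18 had an unadjusted p under 0.05. No share of all probe sets is given for that threshold, so such counts have no background here.

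Induction of dnTcf4 lowered 9 of the 18 probe sets, of 8 genes, and raised none. SNHG15 fell most, to 0.52 of its uninduced level, followed by SNHG16, SNHG1, SNHG7 and GAS5, with log2 changes between -0.63 and -0.52 in the probe sets concerned. Smaller decreases had log2 changes of -0.47 (SNHG8), -0.39 (a second SNHG16 probe set), -0.32 (SNHG5) and -0.26 (SNHG6). GAS5 was called by 228238_at alone. Its bright probe sets changed by -0.23 and -0.21, and neither these nor its other probe sets passed. The dim SNHG7 probe set did not pass either. Among all probe sets 26.1% were called, 12% higher and 14.1% lower, against 50% of the host listings. With a stricter filter, at the 75th percentile of mean log2 signal, 10 of 13 host listings were called, against 6163 of 13654 probe sets. Unadjusted, 12 of the 18 had a p under 0.05, all of them lower, and the 3 with a positive change did not pass. This count too has no share of all probe sets beside it. The median change was -0.34 for the 18 and -0.04 for all probe sets. The 3′/5′ ratio of ACTB was lower in the same induced arrays (1.13 to 1.16) than in the uninduced ones (1.25 to 1.35), and its part in these decreases was not tested.

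In the difference of the changes, shRNA change minus dnTcf4 change, 7 of the 18 were called and all 7 were positive, where 11.9% of all probe sets were called, 5.97% positive and 5.93% negative. With the stricter filter at the 75th percentile, 7 of 13 host listings were called, against 3179 of 13654 probe sets. The median difference was 0.28 for the host listings and 0.03 for all probe sets, and 13 of the 18 were positive. Unadjusted, 8 had a p under 0.05, all positive, again without a share of all probe sets to compare. Both inductions were called for 5 probe sets: 3 moved in opposite directions and 2 the same way. The other 4 called with dnTcf4 missed the threshold with the shRNA, and none was called with the shRNA alone. No share of all probe sets was counted for these joint calls or for the 13 positive differences. These counts therefore have no background here.

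**Figure D1:**
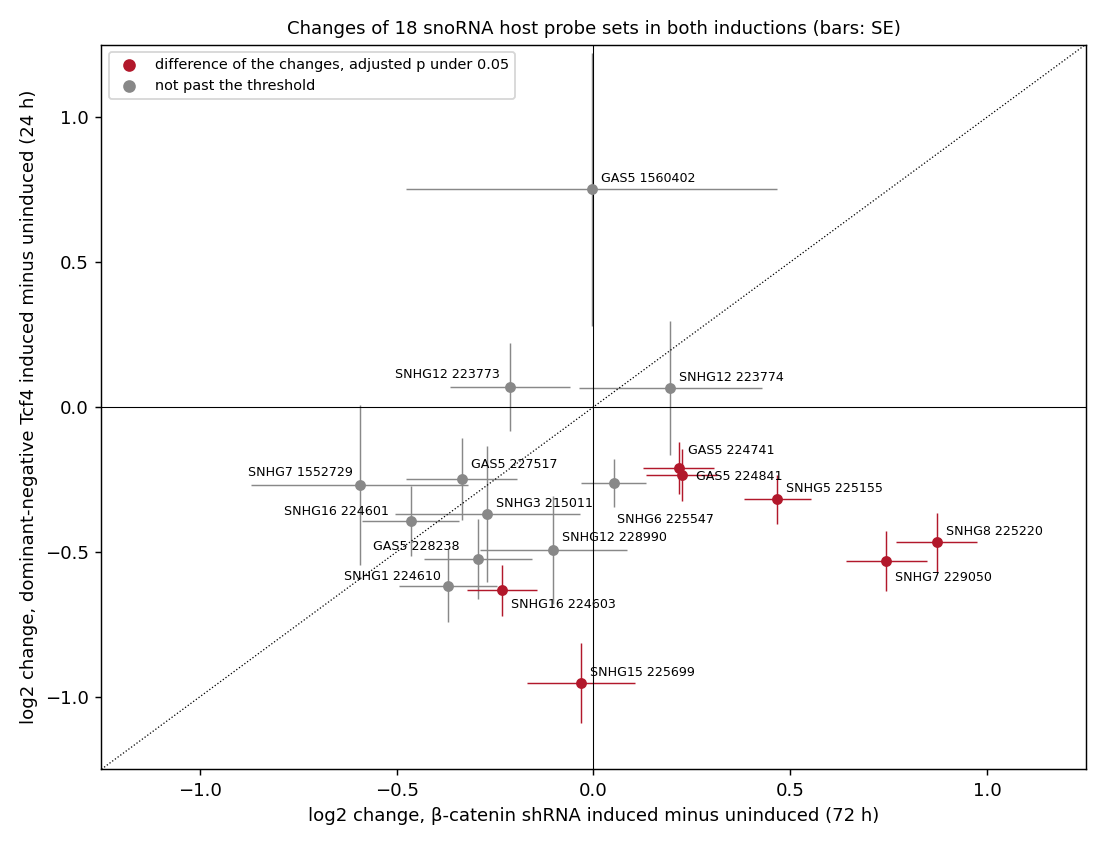
Log2 change with the β-catenin shRNA at 72 h (x axis) against log2 change with dnTcf4 at 24 h (y axis) for the 18 probe sets, as points with standard errors from the fit (n = 3 arrays a group). Red points are those whose 2 changes differed at an adjusted p under 0.05, and SNHG8, SNHG7 and SNHG5 lie at lower right, higher with the shRNA and lower with dnTcf4, while the dotted line marks equal changes.

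SNHG8 hosts the H/ACA snoRNA SNORA24 and rose with the shRNA but fell with dnTcf4. Its listing (225220_at) gave signals of 2067, 2013 and 1897 in induced shRNA cells, against 1118, 1065 and 1082 in uninduced ones. In induced dnTcf4 cells it gave 414, 385 and 379, against 598, 592 and 452 in uninduced ones. None of the 4 groups overlapped, and the order was induced shRNA, uninduced shRNA, uninduced dnTcf4 and induced dnTcf4 cells from high to low. The log2 change was 0.87 ± 0.10 (SE) with the shRNA (limma, adjusted p = 1.07e-05) and -0.47 ± 0.10 with dnTcf4 (adjusted p = 0.00278). The changes differed by 1.34 ± 0.14 (adjusted p = 1.98e-05), the largest difference among the 18.

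SNHG7 hosts SNORA17A and SNORA17B and is covered by a bright and a dim probe set. The bright one (229050_s_at) gave 713, 676 and 676 in induced shRNA cells, against 397, 366 and 478 in uninduced ones. Signals were 245, 234 and 229.6 in induced dnTcf4 cells and 335, 342 and 348 in uninduced ones. Induced shRNA cells lay above all other arrays and induced dnTcf4 cells below them, with the uninduced lines next to each other. The change was 0.74 ± 0.10 with the shRNA (limma, adjusted p = 5.78e-05) and -0.53 ± 0.10 with dnTcf4 (adjusted p = 0.00114), a difference of 1.28 ± 0.15 (adjusted p = 3.82e-05). The dim one (1552729_at) ran the other way between the lines: it gave 13.1, 13.5 and 19.5 in induced and 29.1, 17.8 and 22.9 in uninduced shRNA cells, and between 35.3 and 56.5 on the dnTcf4 arrays. Its changes of -0.59 ± 0.28 with the shRNA (adjusted p = 0.135) and -0.27 ± 0.28 with dnTcf4 (adjusted p = 0.542) did not pass, so the rise with the shRNA was seen by only 1 of the SNHG7 probe sets.

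SNHG5 carries the C/D snoRNAs SNORD50A and SNORD50B. Its listing (225155_at) gave 2189.6, 2456 and 2213 in induced shRNA cells, against 1811, 1551 and 1603 in uninduced ones. In induced dnTcf4 cells the signals were 774, 792 and 720.5, against 895, 991 and 966 in uninduced ones. As for SNHG8, no 2 groups overlapped and the order of the 4 groups was the same. The change was 0.47 ± 0.08 with the shRNA (limma, adjusted p = 0.000621) and -0.32 ± 0.08 with dnTcf4 (adjusted p = 0.0106), and the difference 0.79 ± 0.12 (adjusted p = 0.000493). Centring every array on its median ended the dnTcf4 call, at an adjusted p of 0.0596.

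**Figure D2:**
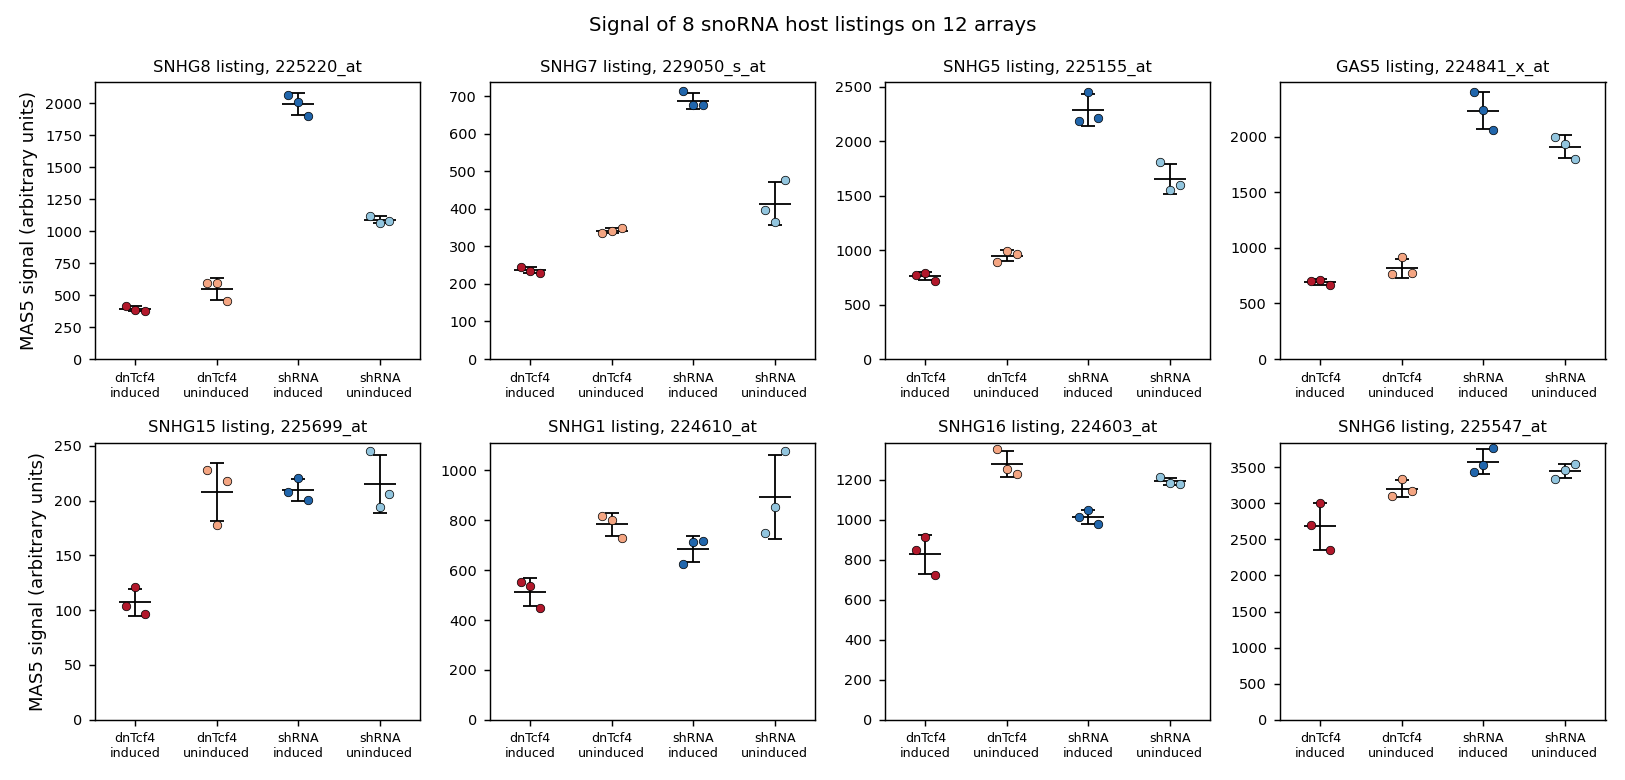
Signal (y axes, arbitrary linear units from 0) of 8 host listings in the 4 groups (x axes), 1 point per array, with a horizontal bar for the mean and error bars of 1 SD (n = 3). SNHG8, SNHG7, SNHG5 and GAS5 are brighter on all 6 shRNA arrays than on all 6 dnTcf4 arrays, and SNHG15 is low only in the 3 induced dnTcf4 arrays.

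SNHG15, host of SNORA9, fell with dnTcf4, and the difference from its change with the shRNA passed. Its listing (225699_at) gave 104, 121 and 96.8 in induced dnTcf4 cells, against 228, 178 and 218 in uninduced ones. In shRNA cells it gave 208, 220.3 and 200.3 when induced and 245, 194 and 206 when uninduced. The 3 induced dnTcf4 arrays lay below the other 9, which overlapped. The change was -0.95 ± 0.14 with dnTcf4 (limma, adjusted p = 8.41e-05), the largest called change among the 18 in either induction. With the shRNA it was -0.03 ± 0.14 (adjusted p = 0.902, 95% interval -0.32 to 0.26), and the difference was 0.92 ± 0.19 (adjusted p = 0.00556).

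SNHG1, which carries 8 C/D snoRNAs from SNORD22 to SNORD31 in its listing (224610_at), fell in both inductions. Signals were 625, 712 and 719 in induced shRNA cells, against 749, 853 and 1078 in uninduced ones. In induced dnTcf4 cells they were 554, 536 and 448, against 817, 803 and 730 in uninduced ones. The groups of each line did not overlap, while the uninduced lines did. The change was -0.62 ± 0.12 with dnTcf4 (limma, adjusted p = 0.00153) and -0.37 ± 0.12 with the shRNA (adjusted p = 0.0401). The shRNA call was lost in 7 of the 12 fits that leave out 1 array (any induced shRNA array, uninduced shRNA replicate 2 or 3, or uninduced dnTcf4 replicate 1 or 2). Without uninduced shRNA replicate 3 the change was -0.22 (adjusted p = 0.188). It was also lost in 4 of 11 other settings: with no filter (adjusted p = 0.0664), no variance trend (0.106), array quality weights (0.0536) or only the arrays compared (0.0593). The changes differed by 0.25 ± 0.18, which did not pass (adjusted p = 0.432, 95% interval -0.13 to 0.62).

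SNHG16, host of the C/D snoRNAs SNORD1A and SNORD1C, has 2 bright probe sets that fell with dnTcf4. The brighter (224603_at) gave 847, 915 and 723 in induced dnTcf4 cells, against 1352, 1255 and 1231 in uninduced ones, a change of -0.63 ± 0.09 (limma, adjusted p = 6.42e-05). In shRNA cells it gave 1015, 1050.1 and 980.5 when induced and 1213, 1185 and 1178 when uninduced, without overlap, and the change of -0.23 ± 0.09 did not pass (adjusted p = 0.0689). The second (224601_at) gave 647, 607 and 549 in induced and 845, 672 and 859.5 in uninduced dnTcf4 cells, and 671, 572 and 791 in induced and 893, 969.6 and 921 in uninduced shRNA cells. It fell by 0.39 with dnTcf4 (limma, adjusted p = 0.0254) and fell by 0.46 with the shRNA (adjusted p = 0.00984). Leaving out 1 array ended its dnTcf4 call in 4 of 12 fits (adjusted p up to 0.107), namely induced replicate 2 or 3 or uninduced replicate 1 or 3, and with no variance trend (adjusted p = 0.0799). Its shRNA call was lost without induced replicate 2 (adjusted p = 0.0525). The 2 probe sets disagreed on the difference of the changes, 0.40 ± 0.13 for the brighter (adjusted p = 0.0492) and -0.07 ± 0.17 for the second (adjusted p = 0.855). The first of these was lost without any 1 array other than induced dnTcf4 replicate 2, in 11 of 12 fits (adjusted p up to 0.127), and in 5 of 10 other settings (up to 0.245).

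GAS5, host of 8 C/D snoRNAs, has 5 probe sets that differed in level and in pattern. The brightest (224841_x_at; the ending _x_at marks probes that may also match other transcripts) gave 2398, 2238 and 2062 in induced shRNA cells and 1999, 1930.3 and 1800.1 in uninduced ones. In dnTcf4 cells it gave 704, 714 and 662 when induced and 764, 916 and 773 when uninduced. Within each line the groups did not overlap, but the changes of 0.22 ± 0.09 with the shRNA (limma, adjusted p = 0.0814) and -0.23 ± 0.09 with dnTcf4 (adjusted p = 0.0681) did not pass. Their difference of 0.46 ± 0.13 did (adjusted p = 0.0276). The next brightest (224741_x_at) lay between 1745 and 2153 on the shRNA arrays and between 664 and 913 on the dnTcf4 arrays, with changes of 0.22 (adjusted p = 0.0929) and -0.21 (adjusted p = 0.097) and a difference of 0.43 ± 0.13 (adjusted p = 0.0382). For the first, the call of the difference was lost without induced dnTcf4 replicate 3, uninduced dnTcf4 replicate 2, induced shRNA replicate 1 or uninduced shRNA replicate 2 or 3, in 5 of 12 fits. For the second it was lost in 8 of 12, all but those without induced dnTcf4 replicate 2, uninduced dnTcf4 replicate 1 or 3 or induced shRNA replicate 2. Leaving out arrays, both reached their highest adjusted p without uninduced dnTcf4 replicate 2 (0.0787 and 0.0979). Both were also lost with centring on the median (adjusted p = 0.158 for the first and 0.188 for the second), no filter (0.0537 and 0.0726) or no variance trend (0.101 and 0.121).

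The other GAS5 probe sets gave lower signals. Probe set 228238_at gave 108, 112 and 89.1 in induced dnTcf4 cells, against 150.4, 143 and 148 in uninduced ones, a change of -0.52 ± 0.14 (limma, adjusted p = 0.00986). With the shRNA its change was -0.29 ± 0.14 (adjusted p = 0.141). Probe set 227517_s_at ranged from 152 to 277 over the 12 arrays, with changes of -0.33 with the shRNA (adjusted p = 0.0991) and -0.25 with dnTcf4 (adjusted p = 0.228). Probe set 1560402_at, the one listed as GAS5 alone, ranged from 9.6 to 34.6 and did not pass in any comparison, with changes of 0.00 ± 0.47 with the shRNA and 0.75 ± 0.47 with dnTcf4. Between the shRNA and dnTcf4 arrays only the pair of bright probe sets separated without overlap.

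**Figure D3:**
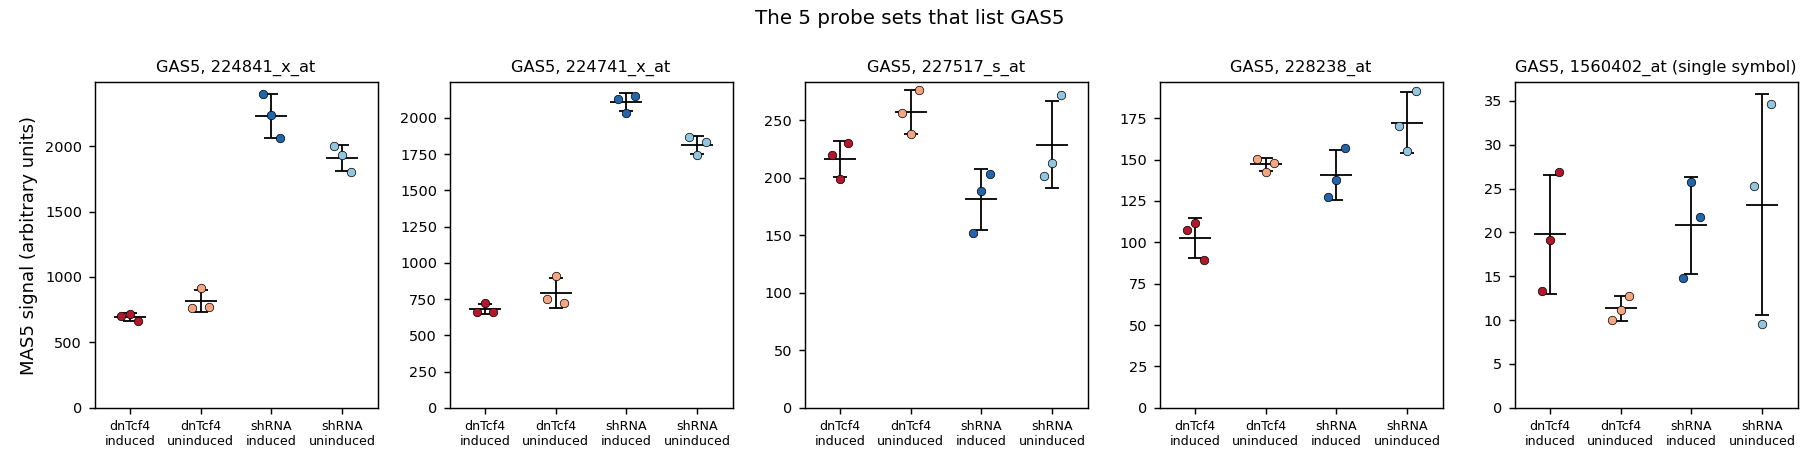
Signal (y axes, arbitrary linear units from 0) of the 5 probe sets that list GAS5 in the 4 groups (x axes), 1 point per array, with mean and SD (n = 3). Both _x_at probe sets lie higher on every shRNA array than on every dnTcf4 array, while the shRNA and dnTcf4 arrays of the other 3 overlap.

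SNHG6 and the 2 remaining genes gave fewer calls. The SNHG6 listing (225547_at), with the C/D snoRNA SNORD87, was the brightest of the 18 and ranged from 2352 to 3764. It gave 2697, 3003 and 2352 in induced dnTcf4 cells, against 3106, 3338 and 3168 in uninduced ones, a change of -0.26 ± 0.08 (limma, adjusted p = 0.0267). The call was lost without induced dnTcf4 replicate 1 or 3 and without uninduced dnTcf4 replicate 2 or 3, with an adjusted p of up to 0.137. It was also lost with centring on the median (adjusted p = 0.102), no filter (0.0727) or no variance trend (0.108). With the shRNA the change was 0.05 ± 0.08 (adjusted p = 0.713), and the difference of 0.31 ± 0.12 did not pass (adjusted p = 0.0981).

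SNHG3, whose listing (215011_at) holds the H/ACA snoRNA SNORA73A, gave 19.9, 27.6 and 22.2 in induced and 23, 38.1 and 30 in uninduced dnTcf4 cells. In shRNA cells it gave 49.4, 57.2 and 69.5 when induced and 67.1, 68.6 and 74.7 when uninduced. Neither change passed (-0.37 ± 0.24 with dnTcf4 and -0.27 ± 0.24 with the shRNA, limma, adjusted p = 0.291 and 0.46). SNHG12 lists the H/ACA snoRNAs SNORA16A, SNORA44 and SNORA61 and has 3 probe sets between 30.8 and 179.8. None passed limma's adjusted threshold in either induction, and 1 had an unadjusted p under 0.05 with dnTcf4. Probe set 228990_at, that one, gave 54.8, 66.5 and 74.4 in induced and 93.6, 80.5 and 100.6 in uninduced dnTcf4 cells, without overlap, and changed by -0.49 ± 0.19 (adjusted p = 0.0629). The other 2 SNHG12 probe sets had changes between -0.21 and 0.19 in the inductions.

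Before any induction some of the host listings already differed between the lines. Of the 18 probe sets 7 were called between the uninduced lines, 1 higher and 6 lower in uninduced dnTcf4 than in uninduced shRNA cells, against 29.4% of all probe sets, 14.2% higher and 15.2% lower. With a stricter filter, at the 75th percentile of mean log2 signal, 6 of 13 host listings were called, against 6027 of 13654 probe sets. The median difference was -0.25 for the 18 and 0.01 for all probe sets. GAS5 was 2.34-fold lower by 224841_x_at (log2 difference -1.23 ± 0.09) and 2.29-fold lower by 224741_x_at (-1.20 ± 0.09). SNHG3 was 2.36-fold lower (-1.24 ± 0.24) and SNHG5 1.74-fold lower (-0.80 ± 0.08). SNHG8, with a mean of 547 ± 83.0 in uninduced dnTcf4 and 1088 ± 27.2 in uninduced shRNA cells (SD, n = 3 each), was also lower. The limma adjusted p of these 5 lay between 5.11e-08 and 0.000837. SNHG12 by 223773_s_at was lower by 0.53 (adjusted p = 0.0154), which was lost in 3 of 12 fits that leave out 1 array (uninduced dnTcf4 replicate 1 or 3 or uninduced shRNA replicate 1), with an adjusted p of up to 0.0858, and with centring on the median (adjusted p = 0.0994).

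In the other direction the dim SNHG7 probe set 1552729_at gave 56.5, 54.7 and 53.3 in uninduced dnTcf4 cells, against 29.1, 17.8 and 22.9 in uninduced shRNA cells (difference 1.27 ± 0.28, limma adjusted p = 0.0024). The bright SNHG7 probe set differed by -0.27 ± 0.10, which did not pass (adjusted p = 0.0653). SNHG15, SNHG16, SNHG6 and SNHG1 had differences between -0.24 and 0.10 that did not pass. For SNHG8 and SNHG5 the induced groups of the lines lay further apart than the uninduced groups, in the same direction. The same held for the bright GAS5 and SNHG7 probe sets, among others. It follows from a lower level in uninduced dnTcf4 cells and a positive difference of the changes, and is no separate observation. Line, construct, time and any handling of the 2 lines cannot be told apart in this comparison.

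**Figure D4:**
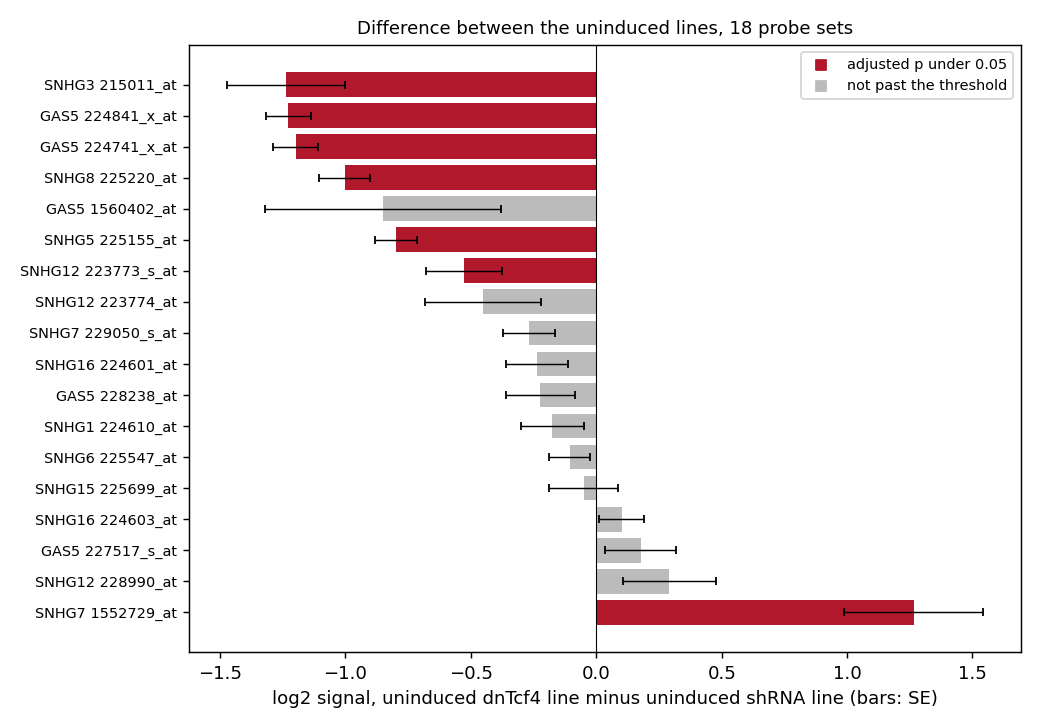
Log2 signal of uninduced dnTcf4 cells minus uninduced shRNA cells (x axis) for the 18 probe sets (y axis), as bars from 0 with standard errors from the fit (n = 3 arrays a group). Red bars passed an adjusted p under 0.05, 6 of them lower in uninduced dnTcf4 cells and 1, for SNHG7, higher.

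Other genes of the pathway were read from lists chosen by function, each gene by its brightest probe set with 1 symbol. A fit of 1 such probe set per gene called 4216 of 12394 with the shRNA and 4455 with dnTcf4. It called 2187 for the difference and 4627 between the uninduced lines. These are larger shares than over all probe sets. Of 12 further noncoding hosts 6 could be tested, and with dnTcf4 5 fell and none rose, while with the shRNA 4 rose and 1 fell. EPB41L4A-AS1, host of SNORA13, changed by 0.77 ± 0.12 with the shRNA (limma, adjusted p = 0.00016) and by -0.61 ± 0.12 with dnTcf4 (adjusted p = 0.00127). DANCR, named for its part in holding back differentiation, changed by 0.32 ± 0.09 (adjusted p = 0.0129) and by -0.91 ± 0.09 (adjusted p = 1.68e-06) in the same comparisons. ZFAS1, host of a SNORD12 cluster, rose by 0.39 ± 0.08 with the shRNA (adjusted p = 0.00107). SNHG17, host of SNORA71 snoRNAs, fell in both: it fell by 0.71 with the shRNA and fell by 0.97 with dnTcf4. The difference of the changes was called for 4 of the 6 (66.7%), all positive, against 11.9% of all probe sets. The median change of the 6 was 0.31 with the shRNA and -0.46 with dnTcf4, and 83.3% were called in each induction. Of all probe sets 25.1% were called with the shRNA and 26.1% with dnTcf4.

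Of 18 tested hosts outside the ribosome 2 rose and 3 fell with the shRNA, and none rose and 7 fell with dnTcf4, with medians of -0.07 and -0.25. These shares of 27.8% and 38.9% compare with 25.1% and 26.1% of all probe sets. With 1 probe set per gene, as in this list, 4216 and 4455 of 12394 were called. NCL, the gene of nucleolin, fell by 0.54 with the shRNA and fell by 0.58 with dnTcf4, and RCC1, the chromatin-bound exchange factor for Ran, fell by 0.64 with dnTcf4. TAF1D, a subunit of the RNA polymerase I selectivity factor, rose by 0.94 with the shRNA. Ribosomal protein hosts were mostly listed with several symbols: 10 of 26 could be tested, of which limma called none with the shRNA (3 at an unadjusted p under 0.05) and 1 rose and 3 fell with dnTcf4. The dnTcf4 calls made 40% of this list, against 26.1% of all probe sets and 4455 of 12394 with 1 probe set per gene. Between the uninduced lines 8 of these 10 were lower in uninduced dnTcf4 cells and none higher. That is 80%, against 29.4% of all probe sets and 4627 of 12394 with 1 probe set per gene.

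The other 72 tested probe sets that list 1 gene with snoRNAs, of 32 genes of which 15 code for ribosomal proteins, were counted in the same way. Called among them were 22.2% with the shRNA (8 higher and 8 lower), 33.3% with dnTcf4 (2 higher and 22 lower) and 33.3% in the difference (24 positive and none negative), against 25.1%, 26.1% and 11.9% of all probe sets. Between the uninduced lines 69.4% were called, 4 higher and 46 lower in uninduced dnTcf4 cells, against 29.4% of all probe sets. The medians were 0.14, -0.18, 0.28 and -0.31. With the stricter filter at the 75th percentile, 5801, 6163, 3179 and 6027 of 13654 probe sets were called (shRNA, dnTcf4, difference and lines). The 72 listings were not counted under that filter. The largest call among them was SNHG29, which rose by 2.00 ± 0.28 with the shRNA (limma, adjusted p = 5.33e-05), and SNHG9 fell by 1.22 with the shRNA and fell by 1.30 with dnTcf4.

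Of 18 tested genes for proteins that bind or assemble snoRNAs, 11 fell with the shRNA and 15 with dnTcf4, and none rose. The other 7 and 3 did not pass. Over all probe sets 12.9% were lower with the shRNA and 14.1% with dnTcf4. With 1 probe set per gene, as in this list, 4216 and 4455 of 12394 were called, 2058 and 1982 of them higher. The medians of the 18 were -0.43 and -0.59, and limma called the difference of the changes for none of them (9 at an unadjusted p under 0.05). GAR1, a core protein of H/ACA particles, fell by 1.04 ± 0.14 with the shRNA (adjusted p = 2.92e-05). NOLC1, a nucleolar chaperone of snoRNPs, fell by 0.68 with the shRNA and fell by 0.92 with dnTcf4. TCOF1, the treacle protein of the nucleolus, fell by 1.39 ± 0.21 with dnTcf4 (adjusted p = 0.000143) and by 0.63 with the shRNA. RUVBL1, an ATPase of the snoRNP assembly machinery, fell by 0.85 with dnTcf4.

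Factors that act on host RNAs were also read. Of 10 tested factors of nonsense-mediated decay 3 fell with the shRNA and 5 with dnTcf4, and none rose. These are 30% and 50% called, against 25.1% and 26.1% of all probe sets. With 1 probe set per gene, as in this list and the next, 4216 and 4455 of 12394 were called. UPF1, the central helicase of this decay, fell by 0.71 with the shRNA (limma, adjusted p = 0.00165) and by 0.55 with dnTcf4 (adjusted p = 0.0101). SMG5 fell by 0.48 with the shRNA and fell by 0.77 with dnTcf4. Of 15 regulators of TOP mRNAs and mTOR signalling 4 fell with the shRNA and 5 with dnTcf4, and none rose, so that 26.7% and 33.3% were called, near the 25.1% and 26.1% of all probe sets. EIF4EBP1, a repressor of cap-dependent translation, fell by 0.95 with the shRNA and fell by 0.94 with dnTcf4, and TIA1, which binds TOP mRNAs, fell by 1.11 with the shRNA and fell by 0.53 with dnTcf4. Medians of the decay list were -0.27 with the shRNA and -0.34 with dnTcf4, and those of the TOP list -0.19 and -0.22.

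**Figure D5:**
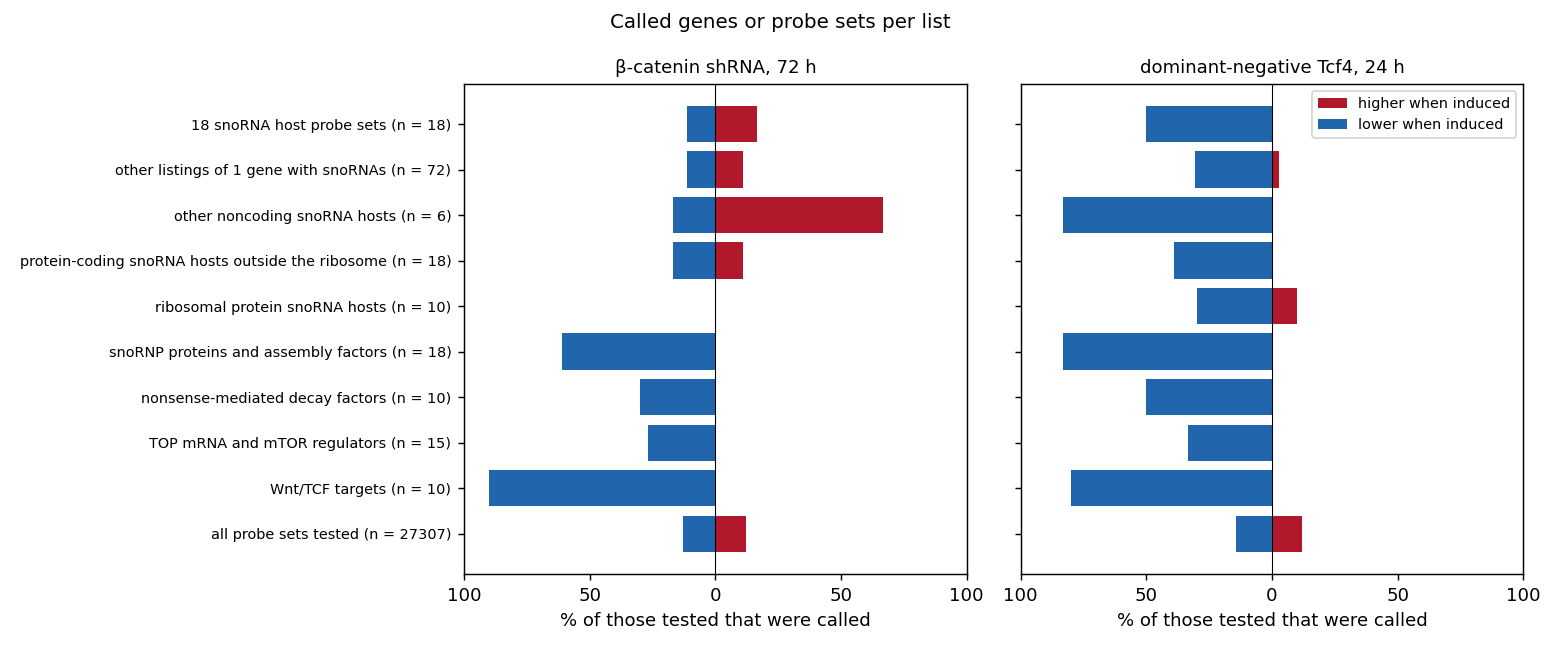
Percentage of tested probe sets or genes called (x axes, in both directions from 0) per list (y axis) with the β-catenin shRNA (left) and with dnTcf4 (right), red for higher and blue for lower in induced cells. The 18 host listings, the other noncoding hosts and the protein-coding hosts outside the ribosome hold calls in both directions with the shRNA and calls only toward lower values with dnTcf4, while the 11 of 18 and 15 of 18 snoRNP genes called were all lower.

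For 4 members the 3 genes with the most similar pattern were taken from the tested probe sets with 1 symbol. The 17 host listings that hold several symbols could therefore not be chosen. The measure was the root mean square difference of log2 signals over the 12 arrays, after centring each probe set on its own mean. GAS5 (224841_x_at) was nearest to GNE (0.098), DYRK4 (0.13) and NUDT6 (0.14). The median over these genes, each by its closest probe set, was 0.78. SNHG8 was nearest to CFAP68 (0.19), NUDT6 (0.20) and EPB41L4A-AS1 (0.20), against a median over the eligible genes of 0.93. SNHG1 was nearest to TRMT11 (0.11), GMNN (0.13) and COX11 (0.13), against 0.47, and SNHG15 to DIMT1 (0.13), TRAP1 (0.13) and CDCA7L (0.14), against 0.55. These distances describe the 12 arrays, which share lines and groups. The nearest of many genes lie below the median in any case. On the same measure, the members varied around their own means by 0.74 (GAS5), 0.91 (SNHG8), 0.33 (SNHG1) and 0.44 (SNHG15).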

How the data were processed

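The deposited table holds 1 intensity (signal) per probe set and array on a linear scale, made by the authors with MAS5 and GCOS per the submitters' processing notes, with no version given. After leaving out 2% of probe sets at each end, the mean signal of each array was 100.01 or 100.02. No genome build entered the signals, detection calls were not used, and 0 columns were left out. RefSeq positions placed the snoRNAs in the host spans, and the promoter windows came from build GRCh38.p14. Probe sets were named through an annotation of the array: 41097 had 1 symbol, 1801 several and 11777 were unnamed here. Listings of 1 host gene with snoRNAs of its span were taken as that host from the annotation. They are named in addition to the rule for named genes, which took only listings of 1 symbol. That rule also took the probe sets of CTNNB1 and TCF7L2, up to 4 called genes per list and induction, and the 3 most similar genes of 4 members.

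Signals under 1 were raised to 1 before the log2 transform. All probe sets except 62 controls whose mean log2 signal reached the median (3.35, a signal of 10.2) were tested, 27307 in all. A model with 4 group means was fitted to all 12 arrays with limma 3.58.1 in R 4.3.3 with a variance trend (8 residual and 7.6 prior degrees of freedom). The 4 contrasts were the change on induction in either line, the shRNA change minus the dnTcf4 change, and uninduced dnTcf4 minus uninduced shRNA cells. Two-sided p-values were adjusted over all probe sets tested (Benjamini-Hochberg), with calls at an adjusted p under 0.05. Genes of lists are represented by their brightest probe set with 1 symbol. Motifs were searched in RefSeq promoter windows. The steps were tested on simulated data. Alternatives covered normalization, filter, offset, probe set choice, variance model, replicate block and leaving out each array. The members and lists were chosen with earlier results of these data known.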

Additional observations from a re-analysis of the deposited data

Results flagged for a closer look

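In the test of the difference between the changes of both lines (shRNA change minus dnTcf4 change, limma over all probe sets tested), 7 host listings passed. Each value is given on the log2 scale with its adjusted p. SNHG8 (225220_at) differed by 1.34 (1.98e-05), SNHG7 (229050_s_at) by 1.28 (3.82e-05), and SNHG5 (225155_at) by 0.79 (0.000493), all 3 higher with the shRNA and lower with dnTcf4. SNHG15 (225699_at) differed by 0.92 (0.00556), with a decrease called in the dnTcf4 line. The bright GAS5 probe sets differed by 0.46 (224841_x_at, 0.0276) and 0.43 (224741_x_at, 0.0382), and SNHG16 (224603_at) by 0.40 (0.0492). These 3 smaller differences are the ones that leaving out single arrays ended.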

How the results depend on the processing

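Calls of SNHG8, SNHG7 (229050_s_at) and SNHG15, those of SNHG1, GAS5 (228238_at) and SNHG16 (224603_at) with dnTcf4, and those of GAS5, SNHG3, SNHG5 and SNHG8 between the uninduced lines kept direction and threshold in every alternative in which they were tested. For single probe sets 674 values kept direction and side of the threshold under other settings, 21 calls were lost and 8 gained, and 3 uncalled values near 0 turned sign. With arrays left out these numbers were 798, 43, 7 and 16, and no called value turned sign in either set. With 1 probe set per gene and 1 symbol each, only the dim GAS5 probe set could be counted and the calls were 0 with the shRNA, 0 with dnTcf4, 0 for the difference and 0 between the lines. Taking listings as genes, chosen after seeing the data, gave 3 higher and 1 lower with the shRNA, 7 lower with dnTcf4, 6 positive for the difference and 5 lower between the lines, of 10. Without _x_at and _s_at probe sets the difference had 3 calls and the lines 4. The difference had 4 calls with centring on the median, with no filter or with no variance trend. Leaving out 1 array gave 4 to 8 calls for the difference and 3 to 6 with the shRNA. The causes were not tested, apart from the smaller number of probe sets counted.

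With centring 63.4% of calls between the lines were positive, against 48.3% without it, with a median of all probe sets of 0.12, and 39.7% against 50.2% for the difference. Over all probe sets, 1 probe set per gene gave 4216, 4455 and 4627 calls (shRNA, dnTcf4, lines), leaving out _x_at and _s_at gave 3920, 3854 and 4622 and for the difference 1843, and no variance trend gave 2144 for the difference. No label says whether replicate numbers pair the arrays. Deviations of arrays with the same number showed little correlation (between -0.034 and 0.059). A limma fit with the replicate block gave 5, 9, 6 and 7 calls with the shRNA, with dnTcf4, for the difference and between the lines. In it SNHG16 (224603_at) was lost for the difference (adjusted p = 0.0746). MAS5 signals carry no depth, and the dim probe sets of GAS5, SNHG3, SNHG7 and SNHG12 have the widest errors.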
